A study of Mus musculus with 98 samples.

Results

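The genes described here are the mouse nuclear receptor genes Nr1d1, Nr1d2 and Rora, which encode REV-ERBα, REV-ERBβ and RORα. They were chosen by symbol, as the rows that carry these names in both deposited count tables, a rule that uses no measured value, although earlier results of these data were known when it was made. The liver table holds 19689 mouse rows, of which they are 3, and they are 3 of 20415 rows in the table for muscle and 2 regions of the hypothalamus, the ARC (arcuate nucleus) and the SCN (suprachiasmatic nucleus, the seat of the central clock), and all 3 passed the filter on low counts in each tissue. The study sampled liver, skeletal muscle, ARC and SCN around the clock, in 98 RNA sequencing libraries, to ask how the species of the hepatocytes bears on daily rhythms in the liver and outside it.

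All mice were FRGN males of 10 weeks, which carry Fah-/-, Rag2-/- and Il2rg-/- on a background crossed to the non-obese diabetic strain. They lack the enzyme that clears a toxic product of tyrosine breakdown, and they lack T, B and natural killer cells. In the Hu arm the liver had been repopulated with human hepatocytes, and only mice with more than 70% human repopulation were used. In the Mu arm, the control, it had been repopulated with mouse hepatocytes, so that both arms had been transplanted through the spleen. Both arms also received nitisinone (NTBC) cycles, sulfamethoxazole with trimethoprim, dextrose in the drinking water and a high energy diet. Liver and muscle had 12 Mu and 15 Hu libraries each, and ARC and SCN had 12 Mu and 10 Hu libraries each. Tissue was collected at ZT 2, 6, 10, 14, 18 and 22, where ZT (zeitgeber time) counts the hours from lights on. Each arm of a tissue had 1 to 3 libraries at a time. The labels do not say that replicates came from separate mice, so p-values measure the spread between these libraries.

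Libraries held 22.95 to 122.2 M counts in liver (M stands for mega), 43.1 to 92.05 M in muscle, 23.72 to 47.13 M in ARC and 25.47 to 34.95 M in SCN. In Hu livers, human rows took 15.86 to 93.07% of the counts, and the mouse rows used here held 7.70 to 87.9 M. In Mu livers human rows took at most 0.0204%. In Hu livers the mouse rows measure the host's own cells, and the 5 hepatocyte markers (such as Alb and Ttr) had a summed level of 7383 to 81143 CPM there against 88406 to 121052 CPM in Mu livers. In bulk RNA, fewer cells of a type and less RNA per cell cannot be told apart. The 4 stellate cell markers ranged from 480 to 4081 CPM in Hu livers and from 336 to 514 CPM in Mu livers, and their part in the liver results below was not tested. CPM are a gene's counts divided by the library's mouse counts in M, after TMM scaling (trimmed mean of M values), which adjusts for the makeup of a library. Values given as mean ± SD are over libraries.

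REV-ERBα and REV-ERBβ are repressors that bind ROR response elements and recruit the NCoR and HDAC3 corepressor complex, while RORα binds the same elements and activates transcription. The main clock gene under this control is Arntl, which encodes BMAL1. BMAL1 and CLOCK in turn activate the genes of the REV-ERB receptors through E-boxes, which closes a loop that runs beside the PER and CRY loop. In liver the receptors are also known for control of lipid and glucose metabolism, and in muscle for control of oxidative capacity.

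On GRCm38, in the GENCODE annotation, Nr1d1 (ENSMUSG00000020889) lies on the minus strand of chromosome 11 from 98767932 to 98775333, with 3077 bases of merged exons. Nr1d2 (ENSMUSG00000021775) lies on the minus strand of chromosome 14 from 18204054 to 18239127, with 5409 bases of exons. Rora (ENSMUSG00000032238) lies on the plus strand of chromosome 9 from 68653786 to 69388246, with 13071 bases of exons. The 3′ end of Nr1d1 overlaps that of Thra, a thyroid hormone receptor gene on the opposite strand, over 1075 bases from 98767932 to 98769006. Of the exon bases of Nr1d1, 263 (8.5%) are shared with exons of Thra. The library kit keeps strand, but whether the counting used it is not given in the sources used here, so reads from the shared bases cannot be assigned with certainty.

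The sequences before the starts of Nr1d1 and Nr1d2 are shown because both genes were rhythmic together in liver and muscle and because BMAL1 with CLOCK and the receptors themselves act on such promoters. They come from RefSeq (GRCm38.p6), read on the strand of the gene, and span chr11:98775378-98775627 for Nr1d1 and chr14:18239128-18239356 for Nr1d2. Capitals mark every match, on either strand, to the E-box CACGTG, its variant CACGTT, the nuclear receptor core AGGTCA, its variant GGGTCA and the D-box TTATGNAA. The variants CACGTT and GGGTCA were added after these letters had been seen. The Nr1d2 window is 229 bases long and ends where the annotated gene starts.
Nr1d1: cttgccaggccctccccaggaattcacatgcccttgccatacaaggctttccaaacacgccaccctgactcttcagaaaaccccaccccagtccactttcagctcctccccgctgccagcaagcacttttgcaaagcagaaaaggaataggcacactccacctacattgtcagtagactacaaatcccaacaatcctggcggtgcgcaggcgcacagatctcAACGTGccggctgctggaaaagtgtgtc
Nr1d2: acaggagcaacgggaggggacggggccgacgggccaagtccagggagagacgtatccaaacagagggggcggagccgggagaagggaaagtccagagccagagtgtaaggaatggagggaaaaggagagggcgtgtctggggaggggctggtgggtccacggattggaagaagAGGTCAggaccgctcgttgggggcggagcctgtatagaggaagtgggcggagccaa
The Nr1d1 window held 1 match, to the E-box variant on the opposite strand, and the Nr1d2 window held 1 match, to the nuclear receptor core. The window of the same kind before Rora (chr9:68653536-68653785) held no match to these 5 motifs. Of 32851 windows of 250 bases before RefSeq starts, 6.02% held CACGTG, 3.85% held CACGTT, 14% held AGGTCA, 11.6% held GGGTCA and 3.07% held TTATGNAA. A match describes these letters only, and none is read as a bound site.

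In Mu livers the 3 receptor genes ran in sequence through the day: Nr1d1 peaked in the light phase, Nr1d2 followed, and Rora peaked at night. Nr1d1 was at 56.3 and 72.5 CPM at ZT 2, 207 and 237 at ZT 6, 96.5 and 157 at ZT 10, 8.47 and 19.1 at ZT 14, 1.72 and 2.89 at ZT 18, and 2.21 and 2.34 at ZT 22. The highest libraries were both from ZT 6, and every library from ZT 18 and 22 lay below every other. In a fit of cosine and sine terms of 24 h, tested with edgeR over 14977 genes, Nr1d1 had the smallest p-value of all genes for rhythm (adjusted p = 9.96e-09). Its fitted peak was at ZT 7.03 ± 0.31 (jackknife SE over libraries, here and for all peak times and amplitudes), with an amplitude of 3.68 ± 0.23 log2 units from the mean to the peak, or 165-fold from trough to peak. Rhythm was called for all 3 receptor genes in Mu livers, where 17.3% of all genes tested were called.

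In Hu livers the same gene kept its place as the most strongly rhythmic mouse gene by p-value (adjusted p = 8.13e-06), over a smaller range. Its libraries read 17.4, 25.4 and 36.5 CPM at ZT 2, 56.7, 59.5 and 92.1 at ZT 6, 26.2 and 47.9 at ZT 10, 9.65 and 13.2 at ZT 14, 2.37, 3.31 and 4.85 at ZT 18, and 3.22 and 9.44 at ZT 22. At ZT 2, 6 and 10 every Hu library lay below every Mu library, at ZT 14 and 18 the arms overlapped, and at ZT 22 both Hu libraries lay above both Mu libraries. The fitted peak was at ZT 6.77 ± 0.41 and the amplitude 2.15 ± 0.20, or 19.6-fold from trough to peak. The amplitude differed from that in Mu by -1.54 ± 0.30 log2 units, and the peak time differed by -0.26 ± 0.51 h (Hu minus Mu), which is within its error. Rhythm was called for 2 of the 3 receptor genes in Hu livers, against 0.167% of all genes. A different rhythm was called for 2 of the 3 receptor genes, Nr1d1 and Nr1d2, against 1.28% of all genes, with an adjusted p of 0.0240 for Nr1d1. The Nr1d1 call was lost without Mu replicate 2 of ZT 18 (0.0623) or of ZT 6 (0.0538), and without any 1 of ZT 6, 10, 14, 18 and 22 (up to 0.104).

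Nr1d2 rose and fell later than Nr1d1 in both arms, and its range was also smaller in Hu livers. In Mu it was at 25 and 38.5 CPM at ZT 2, 87.7 and 116 at ZT 6, 156 and 197 at ZT 10, 56.0 and 79.8 at ZT 14, 20.5 and 25.3 at ZT 18, and 11.3 and 14.4 at ZT 22. In Hu it was at 44.5, 51.1 and 55.0 CPM at ZT 2, 86.9, 111 and 151 at ZT 6, 95.3 and 114 at ZT 10, 55.8 and 80.3 at ZT 14, 23.1, 34 and 50.7 at ZT 18, and 38.6 and 60.0 at ZT 22. The Hu libraries were thus above the Mu libraries at ZT 2 and 22, below them at ZT 10, and among them at ZT 6, 14 and 18. The fitted peak was at ZT 9.37 ± 0.29 in Mu (adjusted p = 9.06e-08 for rhythm) and at ZT 8.25 ± 0.64 in Hu (adjusted p = 0.00592), a difference of -1.12 ± 0.70 h. The amplitude was 1.83 ± 0.11 in Mu against 0.86 ± 0.18 in Hu, with swings of 12.6-fold and 3.31-fold from trough to peak. The rhythm differed between arms (adjusted p = 0.0217), a call that held in 27 of 27 fits that left out 1 library and was lost without ZT 10, 14 or 22 (up to 0.188). With time as a factor neither Nr1d1 (0.135) nor Nr1d2 (0.176) passed for a different rhythm in liver. The rhythm call of Nr1d2 in Hu was lost without ZT 6, 10 or 18 (up to 0.195) and with time as a factor (0.0882).

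Rora, the activator, had a shallow rhythm in Mu livers that was not called in Hu livers. In Mu, its libraries were at 55.2 and 110 CPM at ZT 2, 63.9 and 86.8 at ZT 6, 71.7 and 106 at ZT 10, 98.6 and 105 at ZT 14, 147 and 181 at ZT 18, and 119 and 181 at ZT 22. In Hu they were at 81.3, 91.7 and 95.8 CPM at ZT 2, 95.1, 95.6 and 106 at ZT 6, 75.9 and 89.5 at ZT 10, 105 and 125 at ZT 14, 39.5, 84.6 and 111 at ZT 18, and 90.3 and 126 at ZT 22. The night values of ZT 18 stood above all daytime values in Mu, and Hu libraries showed no such order. The fitted Mu peak was at ZT 18.7 ± 1.3 with an amplitude of 0.58 ± 0.13 (adjusted p = 0.0255), and the Hu amplitude was 0.08 ± 0.10 (adjusted p = 0.997). The difference in rhythm did not pass (adjusted p = 0.178), and leaving out single Mu libraries raised the Mu rhythm p up to 0.0978. The call was lost in 4 of these 27 fits: Mu replicate 1 of ZT 10 or 22, or Mu replicate 2 of ZT 6 or 18. It was also lost without ZT 6, 10, 18 or 22 (up to 0.117) and with time as a factor (0.205).

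**Figure D1:**
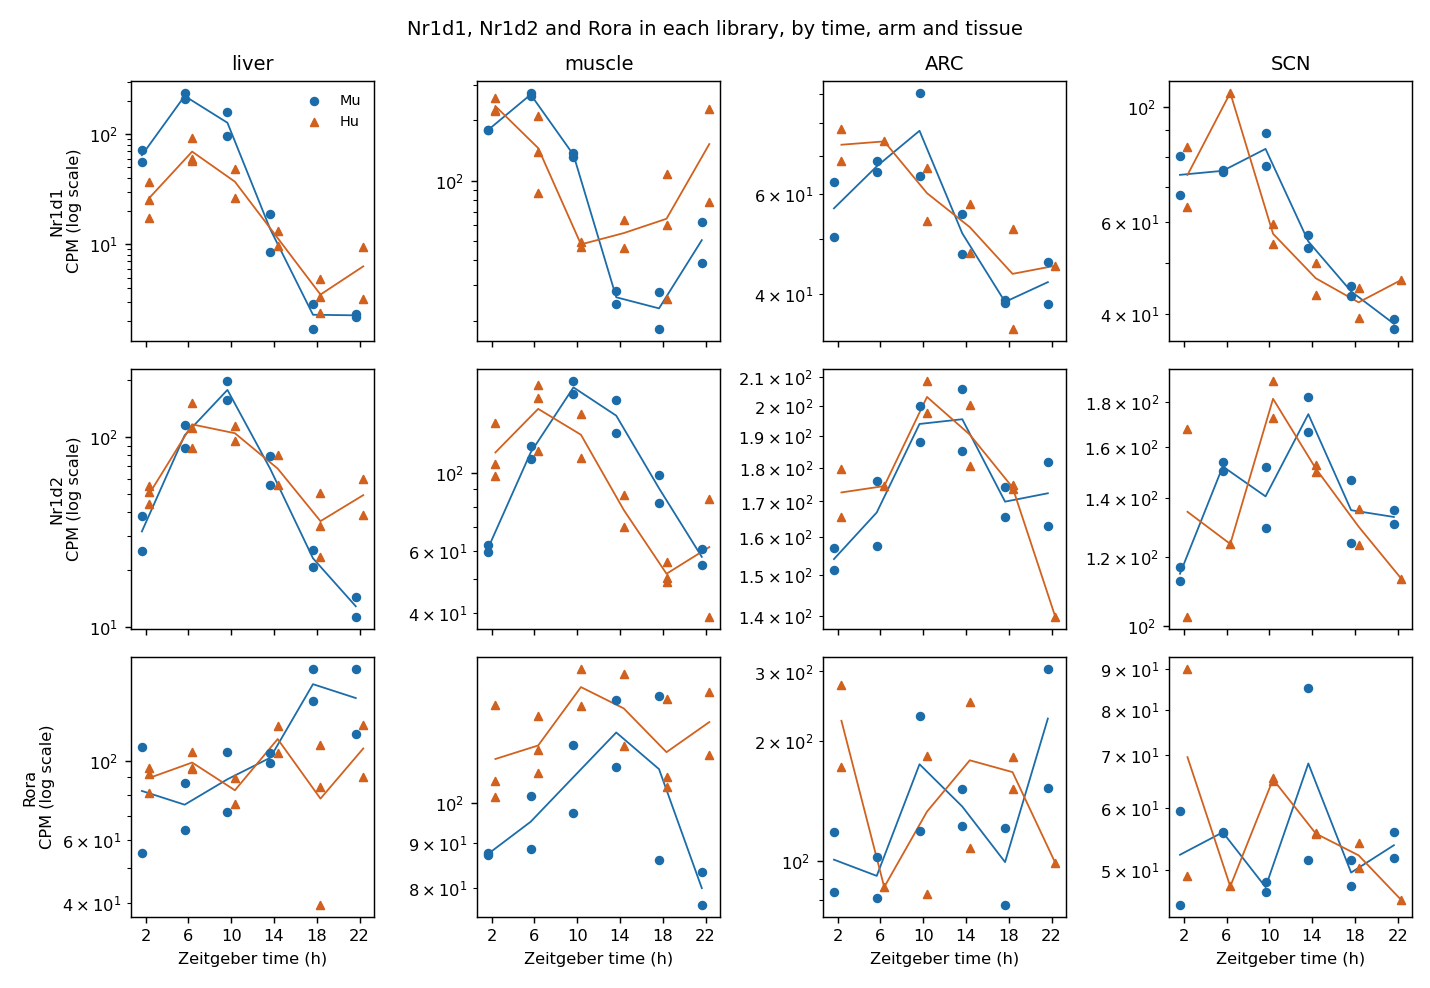
Each point is 1 library (CPM on a log axis against zeitgeber time in h), blue circles for Mu and orange triangles for Hu, with lines through the means of each time; rows are genes and columns are tissues. In liver the Hu points of Nr1d1 stay between 2.37 and 92.1 CPM while the Mu points run from 1.72 to 237 CPM, and in muscle the Hu curves of Nr1d1 and Nr1d2 lie to the left of the Mu curves.

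Set against Mu time by time, 6 of 18 contrasts of the receptor genes passed in liver, and 17.4 to 47.6% of all genes passed at the different times (35.8% at ZT 14). The count of 6 of 18 lies within the range of these shares and is thus no more than the background. Nr1d1 was lower in Hu at ZT 2 by a log2 difference of -1.28 ± 0.43 (SE; adjusted p = 0.0277, where 36.8% of genes were called). It was lower at ZT 6 by -1.68 ± 0.43 (adjusted p = 0.00691, 37.2% of genes) and at ZT 10 by -1.78 ± 0.49 (adjusted p = 0.00950, 45.1% of genes), or 2.44-, 3.19- and 3.43-fold. At ZT 22, near the trough, it was higher in Hu by 1.53 ± 0.50 (adjusted p = 0.0444, 17.4% of genes). With no TMM factor the differences at ZT 2 (-0.72, adjusted p = 0.142) and ZT 10 (-1.03, 0.0622) did not pass, that at ZT 6 was -1.05 (0.0440), and that of Rora at ZT 18 was -0.35 (0.298). Under that scaling Nr1d1 at ZT 18, Nr1d2 at ZT 2, 6 and 18 and Rora at ZT 6 passed as higher in Hu. With no filter on low counts the ZT 22 call of Nr1d1 was lost (0.0517). The Nr1d1 calls also rest on few libraries. The ZT 2 call was lost without Hu replicate 1 or 2 or Mu replicate 1 or 2 of that time (up to 0.111), the ZT 6 call without Mu replicate 2 (0.0586), and the ZT 10 call without Hu replicate 1 (0.101) or Mu replicate 2 (0.0915). At ZT 22 the difference without Hu replicate 1 was 0.51 (adjusted p = 0.567). That call was also lost without Mu replicate 1 (0.167) or 2 (0.186) of ZT 22, and without Hu replicate 2 (0.0502), Mu replicate 1 (0.0535) or Mu replicate 2 (0.0535) of ZT 6. Nr1d2 was 3.86-fold higher in Hu at ZT 22 (log2 difference 1.95 ± 0.35, adjusted p = 0.00149), and this call held in 27 of 27 fits that left out 1 library. Rora was lower in Hu at ZT 18 by -1.06 ± 0.33 (adjusted p = 0.0157, 47.6% of genes), but not without Hu replicate 3 (adjusted p = 0.0539) or Mu replicate 2 (adjusted p = 0.106) of that time. It also missed the threshold without the 2 Hu livers under 20 M mouse counts (-0.74, adjusted p = 0.0515).

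Averaged over the day, the 2 REV-ERB genes went opposite ways in Hu livers. The mean level of Nr1d1 was lower in Hu by a log2 difference of -0.53 ± 0.20 (adjusted p = 0.0176) and that of Nr1d2 was higher by 0.44 ± 0.13 (adjusted p = 0.00461). Rora differed by -0.17 ± 0.14 (adjusted p = 0.271). The mean level differed for 79.5% of all genes tested in liver, so that 2 calls of 3 is no more than the background. The Nr1d1 call was lost without ZT 2 (-0.26, adjusted p = 0.264) or ZT 18 (-0.41, 0.132), and the Nr1d2 call without ZT 6 (0.35, 0.0507) or ZT 22 (0.29, 0.0741). TMM factors were 0.731 to 0.875 in Mu livers and 1.03 to 1.81 in Hu livers. With no such factor the median of all genes moved from 0.07 to 0.74, and the differences became 0.10 for Nr1d1 (adjusted p = 0.612) and 0.46 for Rora (adjusted p = 0.00114), so the direction of both depends on the scaling. Relative to the median gene, Nr1d1 and Rora were lower in Hu under both scalings. This is no separate support for the direction, since leaving out the factor shifts all genes by about the same amount. Across the 15 Hu livers none of the 3 genes was related to the share of human counts by edgeR (1 at an unadjusted p under 0.05 and 1 by DESeq2, Nr1d2 in both cases), while 41.7% of all genes were. The slope of Nr1d2 was -0.13 ± 0.05 log2 units per 10 percentage points (adjusted p = 0.0682), and without Hu replicate 1 of ZT 2 it passed (adjusted p = 0.0167).

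**Figure D2:**
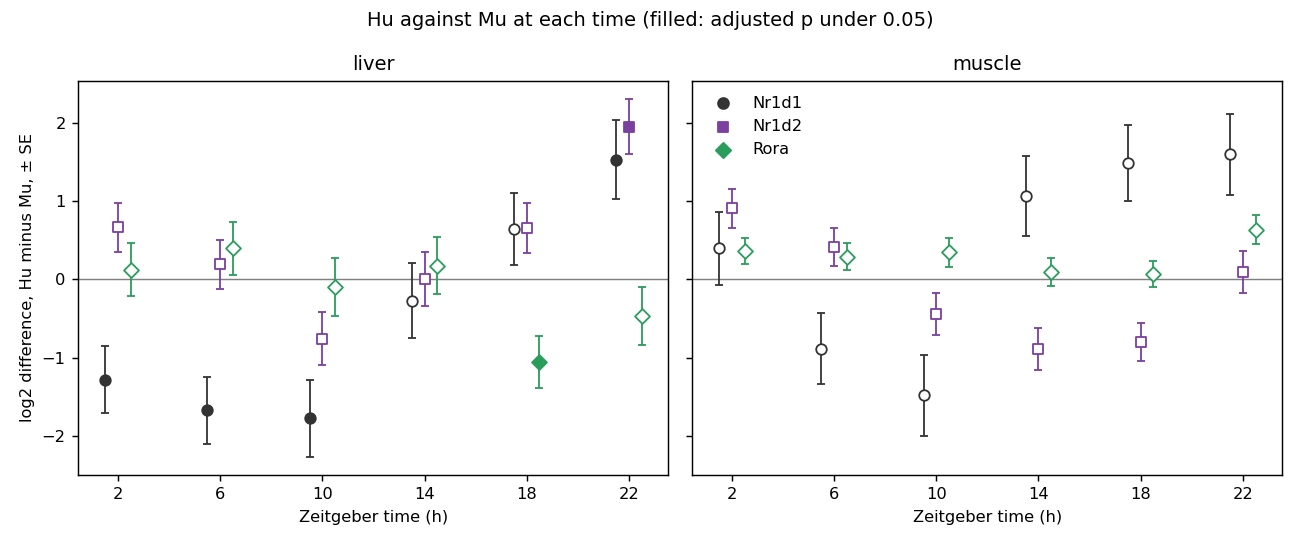
The log2 difference between Hu and Mu (± SE from edgeR) at each zeitgeber time in h, for liver on the left and muscle on the right, with filled symbols where the adjusted p was under 0.05. In liver Nr1d1 runs from -1.78 at ZT 10 to 1.53 at ZT 22, and in muscle the differences of Nr1d1 and Nr1d2 change sign during the day with no filled symbol.

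In muscle both REV-ERB genes were rhythmic in both arms and peaked earlier in Hu. In Mu, Nr1d1 was at 178 and 179 CPM at ZT 2, 263 and 274 at ZT 6, 131 and 138 at ZT 10, 24.1 and 28.2 at ZT 14, 18.2 and 27.8 at ZT 18, and 38.6 and 62.3 at ZT 22. In Hu it was at 223, 225 and 258 CPM at ZT 2, 86.8, 138 and 211 at ZT 6, 46.8 and 49.2 at ZT 10, 46.2 and 63.2 at ZT 14, 25.7, 59.7 and 108 at ZT 18, and 77.7 and 226 at ZT 22. The Mu replicates lay close together with the highest values at ZT 6. The Hu mean was highest at ZT 2, and the Hu replicates spread widely at ZT 6, 18 and 22. The SD within a time was 0.28 log2 units in Mu and 0.69 in Hu.

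The fitted peak of Nr1d1 in muscle was at ZT 5.24 ± 0.27 in Mu (adjusted p = 8.38e-05 for rhythm) and ZT 1.92 ± 0.93 in Hu (adjusted p = 0.00124). The Hu peak was thus earlier, by a difference of -3.32 ± 0.97 h, with a 95% interval of the difference from -5.22 to -1.42 h. The amplitude was 1.93 ± 0.12 in Mu and 1.21 ± 0.21 in Hu, and the swing from trough to peak was 14.6-fold and 5.32-fold. Rhythm was called for 2 of the 3 receptor genes in each arm, against 5.31% of all genes in Mu and 7.78% in Hu. The rhythm of Nr1d1 differed between arms with an adjusted p of 0.0396. With 1 library dropped at a time, the call was lost 21 times of 27 (up to 0.102, without Mu replicate 1 of ZT 18), while the peak difference stayed between -3.90 and -2.97 h in all 27. It also missed it without any 1 of the 6 times (up to 0.241), and the rhythm call in Hu was lost without ZT 2 (0.0503).

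Nr1d2 had the smallest p-value of all 14197 genes for a different rhythm in muscle. Its Mu libraries were at 59.4 and 62.4 CPM at ZT 2, 109 and 119 at ZT 6, 167 and 182 at ZT 10, 129 and 160 at ZT 14, 81.9 and 98.5 at ZT 18, and 54.8 and 60.5 at ZT 22. Its Hu libraries were at 97.8, 106 and 139 CPM at ZT 2, 115, 163 and 177 at ZT 6, 110 and 146 at ZT 10, 70.2 and 86.5 at ZT 14, 48.9, 50.2 and 55.9 at ZT 18, and 39.0 and 84.0 at ZT 22. Hu lay wholly above Mu at ZT 2 and wholly below it at ZT 10, 14 and 18, with overlap at ZT 6 and 22. The peak was at ZT 11.2 ± 0.27 in Mu (adjusted p = 0.000133 for rhythm) and ZT 6.78 ± 0.66 in Hu (adjusted p = 4.61e-05), a difference of -4.42 ± 0.72 h (95% interval -5.82 to -3.02 h). The amplitude was 0.84 ± 0.05 in Mu and 0.81 ± 0.12 in Hu, and the interval of their difference ran from -0.29 to 0.22. A different rhythm was called for 2 of the 3 receptor genes (Nr1d2 adjusted p = 0.0198), against 0.0704% of all genes. Nr1d2 lost the call in 2 of 27 fits that left out 1 library, Hu replicate 1 of ZT 2 (0.0539) and Mu replicate 2 of ZT 14 (0.0631), and without ZT 2, 6, 10, 14 or 18 (up to 0.171). With time as a factor in place of the cosine and sine terms, neither gene passed (adjusted p = 0.202 for Nr1d1 and 0.168 for Nr1d2).

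Rora was the receptor gene whose mean level differed in muscle, while edgeR called its rhythm in neither arm. It ranged from 76.4 to 132 CPM in Mu (median 92.9) and from 101 to 142 CPM in Hu (median 116), with means of 99.8 ± 18.7 (SD, n = 12) and 120 ± 13.6 (SD, n = 15). The ranges overlapped, but the lowest Hu library lay above the Mu median. The log2 difference was 0.28 ± 0.07 (adjusted p = 0.00429), and 26.9% of all genes differed in mean level. The call held in 27 of 27 fits that left out 1 library and was lost without ZT 22 (0.22, adjusted p = 0.0686). The rhythm test gave an adjusted p of 0.0671 in Mu, where DESeq2 called it (adjusted p = 0.0221), and 0.563 in Hu. Mean levels of Nr1d1 (0.37 ± 0.19, adjusted p = 0.143) and Nr1d2 (-0.12 ± 0.09, adjusted p = 0.332) did not pass. The 4 fat cell markers summed to a median of 265 CPM in Mu muscle (132 to 1928) and 596 CPM in Hu muscle (171 to 2017), with no marker at 0, and their part in these differences was not tested.

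No single time passed for any receptor gene in muscle by edgeR (0 of 18 contrasts, 8 at an unadjusted p under 0.05, and 4 by DESeq2), where 6.4% of all genes passed at ZT 14, 0 at ZT 18, and 0.00704, 0.0423, 0.0634 and 0.0141% at ZT 2, 6, 10 and 22. At ZT 10 Nr1d1 had a log2 difference of -1.48 ± 0.52 and at ZT 22 of 1.59 ± 0.52, with Hu wholly below Mu at the first of these times and wholly above at the latter. The 4 contrasts that passed with DESeq2 were Nr1d1 at ZT 18 and 22, Nr1d2 at ZT 14 and Rora at ZT 22. Thra, the overlapping neighbour of Nr1d1, was also rhythmic in muscle in both arms (adjusted p = 0.0129 in Mu and 0.00912 in Hu), with peaks at ZT 5.04 ± 0.47 and ZT 0.69 ± 1.07 and amplitudes of 0.24 and 0.24. Thra and Nr1d1 thus peaked within the same hours in muscle in each arm, and how far the shared bases enter either count was not tested. In liver, ARC and SCN no rhythm of Thra was called, although Nr1d1 was rhythmic there in Mu.

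**Figure D3:**
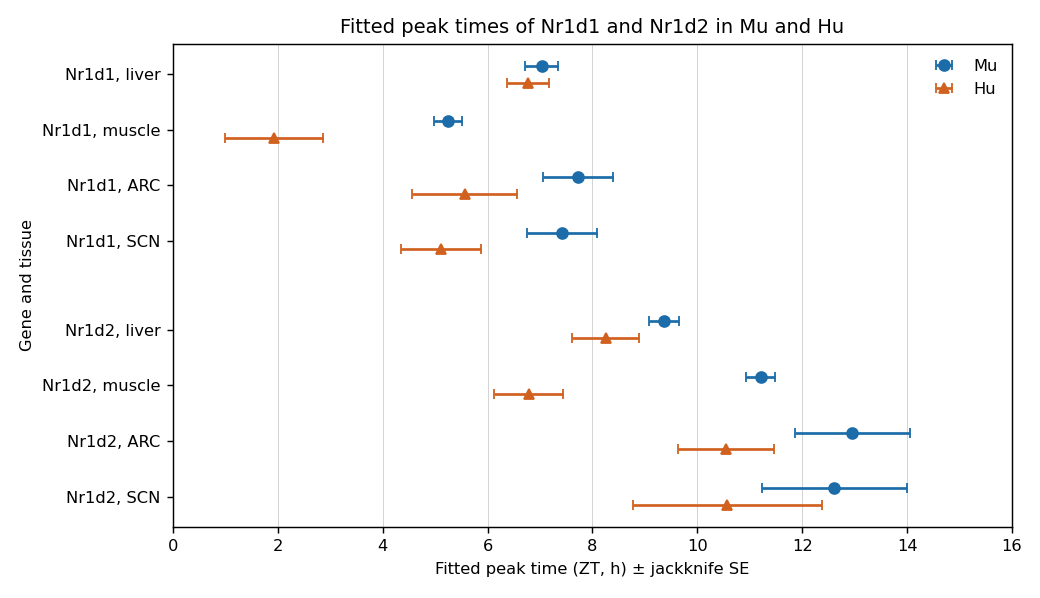
Fitted peak times of Nr1d1 and Nr1d2 (zeitgeber time in h, ± jackknife SE) in each tissue, blue circles for Mu and orange triangles for Hu. Every Hu point lies to the left of its Mu point, with differences from -0.26 h for Nr1d1 in liver to -4.42 h for Nr1d2 in muscle. The first of these is within its error (± 0.51 h), and most rhythms in ARC and SCN were not called. Over all genes, 52.5 to 61.4% had an earlier fitted peak in Hu, depending on the tissue. Genes rhythmic in both arms had median differences of -1.57 h in liver, -3.22 h in muscle and -2.34 h in ARC.

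In the ARC and the SCN the same genes ran at shallow amplitude, and no difference between arms passed. The libraries were first set against regional markers: Agrp, Npy, Pomc and Cartpt were all higher in the ARC libraries, 12.6-fold for Agrp. Of the SCN markers Prok2 was higher in the libraries labelled SCN (log2 difference 0.75 ± 0.23, adjusted p = 0.00469), Vip (0.16 ± 0.37) and Nms (0.42 ± 0.24) did not pass, and Avp was 2.70-fold higher in the ARC libraries. The SCN label is therefore only partly borne out by its markers, and the values below are those of libraries labelled SCN.

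Nr1d1 in Mu ARC read 50.4 and 62.9 CPM at ZT 2, 65.8 and 68.6 at ZT 6, 64.7 and 90.5 at ZT 10, 47.0 and 55.4 at ZT 14, 38.5 and 39.0 at ZT 18, and 38.4 and 45.6 at ZT 22. In Hu ARC it read 68.6 and 78.1 at ZT 2, 74.3 at ZT 6, 53.9 and 66.7 at ZT 10, 47.3 and 57.7 at ZT 14, 34.8 and 52.1 at ZT 18, and 44.9 at ZT 22. Mu libraries were highest at ZT 10 and Hu libraries at ZT 2 and 6, with Hu above Mu at those 2 times and overlap at the others. Rhythm was called in Mu (adjusted p = 0.00567, peak ZT 7.73 ± 0.67, amplitude 0.48 ± 0.08) and not in Hu (adjusted p = 0.193, peak ZT 5.56 ± 1.01, amplitude 0.41 ± 0.13). The Mu call was lost without ZT 10 (0.0595) and with time as a factor (0.114). The difference in rhythm did not pass (adjusted p = 1), and the interval of the peak difference ran from -4.53 to 0.20 h.

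The SCN libraries gave nearly the same course for Nr1d1. Mu values were 67.6 and 80.3 CPM at ZT 2, 75.0 and 75.6 at ZT 6, 76.8 and 89.1 at ZT 10, 53.5 and 56.6 at ZT 14, 43.2 and 45.1 at ZT 18, and 37.4 and 39.1 at ZT 22. Hu values were 64.0 and 83.8 CPM at ZT 2, 106 at ZT 6, 54.4 and 59.5 at ZT 10, 43.5 and 50 at ZT 14, 39.3 and 44.8 at ZT 18, and 46.4 at ZT 22. At ZT 10 and 14 both Hu values were below both Mu values, and at ZT 6 and 22 the single Hu value was above both. Rhythm was called in Mu (adjusted p = 0.0136, peak ZT 7.42 ± 0.67) and missed the threshold in Hu (adjusted p = 0.0614, peak ZT 5.11 ± 0.76), with amplitudes of 0.55 ± 0.08 and 0.55 ± 0.13. The peak was earlier in Hu, with a difference of -2.31 ± 1.01 h (95% interval -4.28 to -0.33 h), while the edgeR test of a different rhythm gave an adjusted p of 1 (unadjusted 0.0447). The Mu call was lost without Mu replicate 1 of ZT 10 (adjusted p = 0.0510) and without ZT 10, 14, 18 or 22 (up to 0.154). The Hu rhythm passed without Mu replicate 2 of ZT 2 (0.0248).

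Nr1d2 was the most abundant of the 3 in both regions by CPM and moved little through the day. It ranged from 151 to 206 CPM in Mu ARC (median 175), from 140 to 209 in Hu ARC (median 177), from 113 to 182 in Mu SCN (median 141) and from 102 to 190 in Hu SCN (median 143). The ranges of the arms overlapped. Its fitted amplitudes were 0.15 to 0.27 and no rhythm was called (adjusted p from 0.115 to 0.868). Rora ranged from 77.5 to 304 CPM in Mu ARC (median 120) and from 82.7 to 278 CPM in Hu ARC (median 162). At ZT 22 its 2 Mu libraries read 152 and 304 CPM, so replicates of 1 time lay far apart. In SCN it lay between 45.1 and 90.1 CPM in both arms. No rhythm of Rora was called in either region. In ARC, 1 of the 3 receptor genes was rhythmic in Mu (1.41% of all genes) and 0 in Hu (0.0995% of all genes), with 2 at an unadjusted p under 0.05 and 1 by DESeq2. In SCN, 1 was rhythmic in Mu (0.207% of all genes) and 0 in Hu (0.00666% of all genes), again with 2 at an unadjusted p under 0.05 and 1 by DESeq2. For a different rhythm between arms edgeR called 0 of 3 in each region, as it did of all genes. At an unadjusted p under 0.05 there were 0 in ARC and 1 in SCN, and DESeq2 called 0 in both. For a different mean level the counts were 0 of 3 by all of these in both regions, where 0.00663% of all genes were called in ARC and 0 in SCN.

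Between the regions, Rora and Nr1d2 were lower in SCN than in ARC, in a fit over both arms and all times. Rora was at 148 ± 66.5 CPM (SD, n = 22) in ARC and 56.1 ± 11.5 (SD, n = 22) in SCN, 2.52-fold higher in ARC (log2 difference SCN minus ARC -1.34 ± 0.13, adjusted p = 2.59e-11). Nr1d2 was at 177 ± 18 and 142 ± 23.2 CPM, a difference of -0.32 ± 0.04 (adjusted p = 4.83e-09). Nr1d1 was at 56.6 ± 14.5 and 60.6 ± 19.3 CPM and did not pass (0.07 ± 0.05, adjusted p = 0.212). Since 73.7% of all genes differed between the regions, 2 of 3 is close to the background. Rorb, which encodes RORβ, was higher in ARC (40.2 ± 6.4 against 33.6 ± 4.1 CPM, adjusted p = 0.000146).

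**Figure D4:**
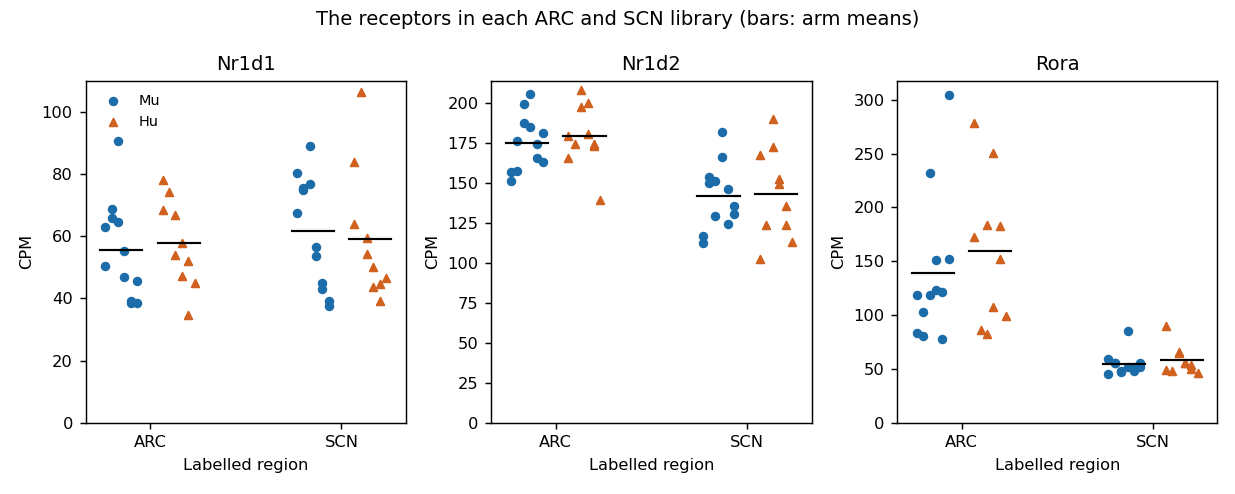
CPM of each receptor gene in every library labelled ARC or SCN, blue circles for Mu and orange triangles for Hu, ordered within each column by zeitgeber time, with bars at the arm means. Rora lies between 77.5 and 304 CPM in ARC and between 45.1 and 90.1 CPM in SCN, and the arms overlap in every panel.

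Compared per length, as CPM per kilobase of exon, Nr1d1 stood above Nr1d2 in Mu liver and muscle and below it in ARC and SCN. The exon length was merged over all annotated transcripts (13071 bases for Rora), and which of them were expressed was not tested. In Mu muscle the means over the day were 36.9 for Nr1d1, 19.8 for Nr1d2 and 7.64 for Rora, and in Mu liver 23.4, 12.8 and 8.45. In Mu ARC the order was Nr1d2 at 32.4, Nr1d1 at 18.1 and Rora at 10.6, and in Mu SCN 26.2, 20.0 and 4.18. Rora was thus the lowest per length in all 4 tissues of Mu, and it was the lowest in the Hu means of muscle, ARC and SCN as well as in Hu liver, where it was at 7.31 against 8.35 for Nr1d1 and 13.1 for Nr1d2. The SD of Nr1d1 over the day, which includes its rhythm, was 27.7 in Mu liver, 30.6 in Mu muscle and 8.61 in Hu liver. The means of Nr1d1 and Nr1d2 lie closer together than that in Mu liver and Mu muscle, as do those of Nr1d1 and Rora in Hu liver. In Mu liver the means of Nr1d2 and Rora also lie closer than the SD of Nr1d2 (SD 11.2 and 3.16). These orders were not tested. Liver was normalised apart from the other tissues, so levels are set side by side across them only as values.

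Across muscle, ARC and SCN, which were fitted together, the effect of the arm on rhythm differed among tissues for 2 of the 3 receptor genes (Nr1d2 adjusted p = 0.0195 and Nr1d1 adjusted p = 0.0269), against 0.0748% of the 16040 genes. Rora did not pass (adjusted p = 1). The peak difference of Nr1d1 (Hu minus Mu) was -3.32 h in muscle, -2.17 h in ARC and -2.31 h in SCN, and that of Nr1d2 was -4.42, -2.40 and -2.04 h. The amplitude of Nr1d1 in Mu was 1.93 in muscle against 0.48 in ARC and 0.55 in SCN. The tested coefficients thus differ in size, and the test does not tell size from phase. It took libraries of different tissues as separate, although same-numbered ones may come from the same mouse. A difference among tissues in the effect on mean level was called for none of the 3 (0 by edgeR, 0 at an unadjusted p under 0.05, 0 by DESeq2), against 13.1% of genes.

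By the fitted peaks, the delay from Nr1d1 to Nr1d2 was shorter in liver than in the other tissues. It was 2.34 ± 0.31 h in Mu and 1.48 ± 0.67 h in Hu liver, and 5.96 ± 0.35 h in Mu and 4.86 ± 0.89 h in Hu muscle. In ARC it was 5.23 ± 1.41 and 4.99 ± 1.18 h, and in SCN 5.19 ± 1.64 and 5.46 ± 2.07 h. No rhythm of Nr1d2 was called in ARC or SCN, and that of Nr1d1 was called there in Mu only. The delays in these regions thus rest on peaks of fits that were not called. Within each tissue the arms differed by less than the errors of their delays added together. The Arntl peak minus the Nr1d1 peak was also close in both arms, at -8.79 ± 0.61 h in Mu and -8.11 ± 0.75 h in Hu liver, and at -6.29 ± 0.76 and -6.78 ± 1.09 h in muscle. The rhythm of Arntl was not called in Hu liver (edgeR adjusted p = 0.119). These delays carry no test.

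The genes that the receptors and BMAL1 act on were taken as lists. Of 5 clock genes with ROR response elements (Arntl, Clock, Npas2, Nfil3 and Cry1), all 5 were rhythmic in Mu liver and 1 in Hu liver (Cry1, a repressor of BMAL1 and CLOCK, adjusted p = 0.00367). Over all genes, 17.3% were rhythmic in Mu liver and 0.167% in Hu liver. A different rhythm was called for Cry1 (adjusted p = 0.00622) and Npas2 (adjusted p = 0.0445), against 1.28% of all genes. Arntl peaked at ZT 22.2 in Mu and ZT 22.7 in Hu liver, and its rhythm test gave adjusted p-values of 0.000589 and 0.119. In muscle all 5 were rhythmic in both arms, against 5.31% of all genes in Mu and 7.78% in Hu. All 5 had an earlier fitted peak in Hu, with a median difference of -3.32 h. Over all genes tested in muscle 61.4% had an earlier fitted peak in Hu, and the 302 genes rhythmic in both arms had a median difference of -3.22 h, so the list's median is close to that of rhythmic muscle genes in general. None of the 5 passed the test of a different rhythm there (adjusted p from 0.132 to 0.305), where 0.0704% of all genes did.

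Of 10 clock genes with E-boxes, 9 were rhythmic in Mu liver, against 17.3% of all genes. In Hu liver 3 were, against 0.167% of all genes: Per2 and Per3, of the PER loop, and Dbp, a D-box activator. Per2 (adjusted p = 0.0180) and Bhlhe40 (adjusted p = 0.0449) differed in rhythm, against 1.28% of all genes. In muscle 8 were rhythmic in each arm, against 5.31% of all genes in Mu and 7.78% in Hu. An earlier fitted peak in Hu was found for 10 of 10, and for 61.4% of all genes (median -3.40 h, beside -3.22 h for the 302 genes). None had a called difference in rhythm, against 0.0704% of all genes. Dbp came closest (-4.64 h, adjusted p = 0.0685). In ARC 4 were rhythmic in Mu and 2 in Hu (Dbp and Bhlhe41), against 1.41 and 0.0995% of all genes. In SCN 1 was rhythmic in Mu (Ciart, a clock repressor) and 0 in Hu, against 0.207 and 0.00666% of all genes.

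**Figure D5:**
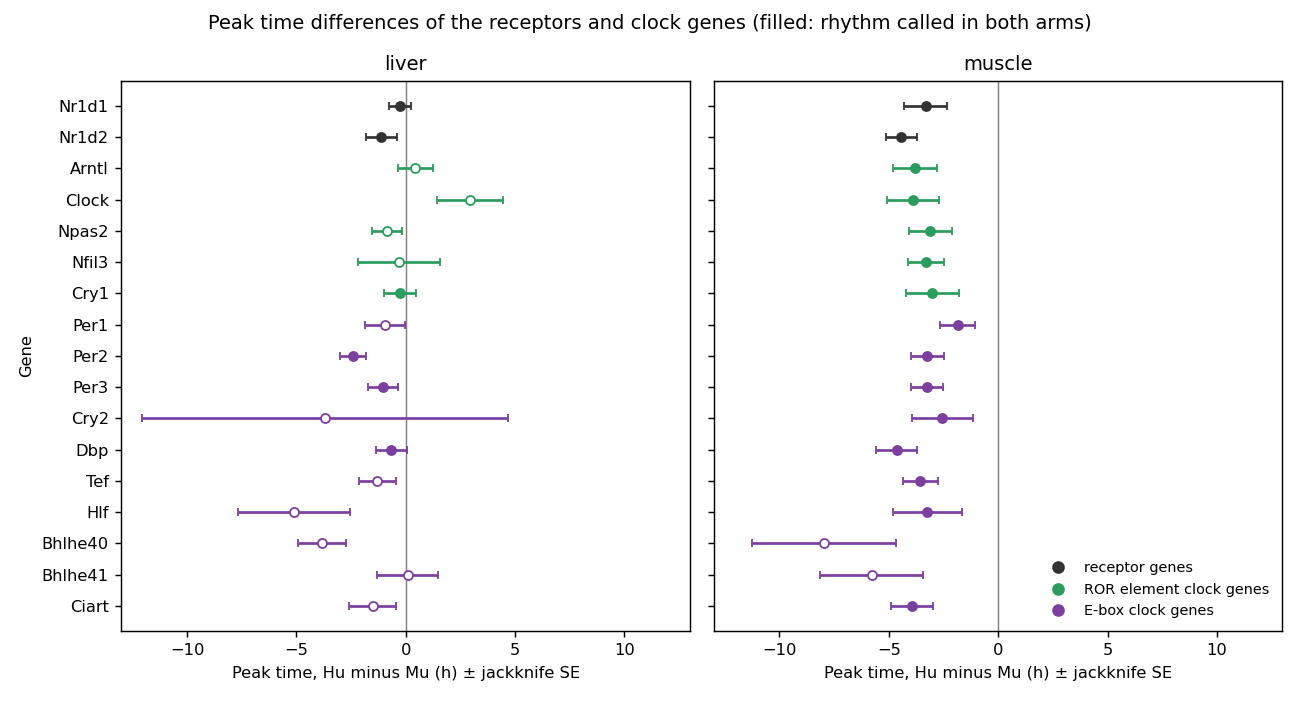
Difference in fitted peak time between Hu and Mu (h, ± SE) for Nr1d1, Nr1d2 and the clock genes in liver and muscle. In muscle Nr1d1 (-3.32 h) and Nr1d2 (-4.42 h) lie among clock genes whose medians are -3.32 h and -3.40 h, and in liver the medians are -0.25 h and -1.40 h; filled points had a rhythm called in both arms.

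Of the corepressor genes Ncor1, Hdac3, Tbl1x, Tbl1xr1 and Gps2, Ncor1 (adjusted p = 0.0278) and Tbl1x (adjusted p = 0.0172) were rhythmic in Mu liver and none in Hu liver, and in muscle Tbl1xr1 was rhythmic in both arms. Over all genes, 17.3% were rhythmic in Mu liver, 0.167% in Hu liver, 5.31% in Mu muscle and 7.78% in Hu muscle. No difference in rhythm passed for these corepressor genes. In mean level Hdac3, the deacetylase, was lower in Hu liver by a log2 difference of -0.27 ± 0.08 (adjusted p = 0.00406) and Gps2 by -0.16 ± 0.07 (0.0415). Ncor1 (0.22 ± 0.10, adjusted p = 0.0374) and Tbl1x (0.16 ± 0.07, 0.0415) were higher, where 79.5% of all genes differed. Gps2 was higher in Hu muscle by 0.25 ± 0.07 (adjusted p = 0.0109).

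Of 14 reported targets outside the clock, 4 were rhythmic in Mu liver (Insig2, Elovl3, Plin2 and Fabp7), against 17.3% of all genes. In Hu liver 0 were called, against 0.167% of all genes. None of the 4 passed the test of a different rhythm (adjusted p from 0.117 to 0.648), so a loss of rhythm was not shown. Elovl3, a fatty acid elongase, was at 342 CPM on average in Mu livers and at 0 to 0.35 CPM in Hu livers (adjusted p = 3.92e-15 for mean level), so its rhythm in Hu could not be read at this level. In mean level, Fgf21 rose in Hu liver by 2.27 log2 units, Lpl, a lipoprotein lipase, by 1.91 and Cidec by 1.32. Others fell, among them Apoc3, a lipoprotein component (-2.01), and G6pc, of glucose release (-2.53). These changes stand beside 42.5% of all genes higher and 37% lower in liver. Fabp7, a lipid carrier of glia, was rhythmic in both arms in ARC and SCN.

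The genes most like each receptor were found by Pearson r of log2 CPM over the 12 means of arm and time in each tissue, averaged over the 4 tissues, among 12820 genes. For Nr1d1 they were Chpf2 (0.747), Tap1 (0.735) and Dph7 (0.733). For Nr1d2 they were Coq10b (0.801), Lin9 (0.730) and Zfp367 (0.699), and for Rora Eif1ax (0.772), Thap12 (0.747) and Acsl3 (0.739). The points share libraries and scaling, and the values are a description.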

How the data were processed

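RNA was sequenced from liver, muscle, ARC and SCN of both arms. The authors deposited raw counts per gene in 2 tables. STAR and the builds GRCm38, mm10, hg38, GRCh38 and hg19 are named per the submitters' processing notes; versions, the counting tool and its strand setting are not given in the sources used here. Only mouse rows entered library sizes and tests. Genes passing filterByExpr by arm were scaled by TMM and fitted per tissue with edgeR 4.0.16 (R 4.3.3), quasi-likelihood, with 24 h cosine and sine terms per arm; p-values were Benjamini-Hochberg adjusted over all genes of the tissue (threshold 0.05). Peak times and amplitudes came from least squares on log2 CPM (prior count 2) with jackknife SE and 95% intervals. The scripts were tested on simulated data. Depth is given as total counts per library; at these totals replicate spread limits precision. Alternatives were DESeq2 1.42.0, RLE scaling, no filter, ZT as a factor, other library sizes, the replicate block, and leaving out each library or time. The receptors and lists were chosen with earlier results of these data known. Genes named are the receptors, list genes that passed a test or explain a list's count, and the 3 genes most like each receptor. Within a tissue and time, same-numbered Hu and Mu libraries deviated together only weakly. The mean r was 0.115 in liver, 0.0249 in muscle, 0.13 in ARC and 0.12 in SCN, so the arms were not taken as paired. Whether the same number in different tissues stands for the same mouse was not checked, and the main fits over several tissues took libraries as separate. With same-numbered ARC and SCN libraries of an arm and time as blocks, Rora and Nr1d2 still differed between the regions. At ZT 22, 1 Hu column each of ARC and SCN was tied to its group only and had no replicate number. Some genes of the lists are not reported here.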

Additional observations from a re-analysis of the deposited data

Results flagged for a closer look

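The effect of the arm on rhythm differed among muscle, ARC and SCN for Nr1d1 (adjusted p = 0.0269) and Nr1d2 (adjusted p = 0.0195) in edgeR's test of the interaction. Both were flagged because the same contrast gave different effects in different tissues. The peak differences (Hu minus Mu) of Nr1d1 were -3.32 ± 0.97 h in muscle, -2.17 ± 1.21 h in ARC and -2.31 ± 1.01 h in SCN. Those of Nr1d2 were -4.42 ± 0.72, -2.40 ± 1.43 and -2.04 ± 2.27 h. The tested coefficients also scale with amplitude, which was larger in muscle. The test therefore does not show that the peak differences themselves differ among tissues.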

How the results depend on the processing

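Of the alternatives, 717 left a count of called receptor genes within 1.5 times its value and 65 moved it. For single genes, 3704 were counted as unchanged, 95 lost a call, 24 gained one, 2 reversed and 18 moved. Unchanged stands for the same call, or for a peak time or amplitude difference that shifted by less than its SE. A change of sign in a difference that was not called also counted as unchanged. Moved stands for a peak time or amplitude difference that shifted by its SE or more. With no TMM factor, an alternative chosen after seeing the data, the liver level differences of Nr1d1 and Rora reversed to 0.10 and 0.46. DESeq2 called 4 single-time contrasts in muscle, 1 gene for human share, and 1 rhythmic in Hu in each of ARC and SCN. With time as a factor, 1 gene stayed rhythmic in Hu liver, 0 in Mu ARC, and 0 differed in rhythm in liver or muscle. Without ZT 6, 10 or 18, 1 was rhythmic in Hu liver, and without ZT 2, 1 in Hu muscle. In Mu, 0 were rhythmic in ARC without ZT 10, and 0 in SCN without ZT 10, 14, 18 or 22. A different level held for 1 in liver without ZT 2, 6, 18 or 22, and for 0 in muscle without ZT 22. A different rhythm held in liver for 0 without ZT 10, 14 or 22 and for 1 without ZT 6 or 18, and in muscle for 0 without ZT 2, 6, 10, 14 or 18 and for 1 without ZT 22. The cause was not tested. Leaving out 1 library gave 0 to 1 single-time contrasts in muscle, 0 to 1 for human share, 0 to 1 rhythmic in Hu SCN and in Mu SCN, 1 to 2 for level in muscle, 1 to 2 for a different rhythm in liver and 0 to 2 in muscle. It was not run for fits over several tissues.

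With the replicate block, a different rhythm in muscle was called for 1 gene (Nr1d1 adjusted p = 0.0661), and no other count of receptor genes changed by over 1.5 times. Over all genes, rhythm calls went from 31 to 12 in Mu SCN and from 15 to 5 in Hu ARC with the block. In ARC and SCN these fits also left out the only Hu library of ZT 22, which has no replicate number. The fall there cannot be put down to the block alone.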
